A study of Mus musculus with 23 samples.

Results

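Hearts of mice taken 1 day after lipopolysaccharide (LPS) were compared with untreated hearts of the same arm, across all genes. The comparison takes the 4 libraries labelled LPS day 1 and the 4 labelled LPS baseline, 8 of the 23 libraries of a study of LPS and isoproterenol in the heart, and each library is poly-A RNA of a heart sequenced in bulk. LPS day 1 hearts came from female wild-type mice of the inbred strain C57BL/6J, 10 weeks old, that had received LPS at 2.5 mg/kg, and LPS baseline hearts came from untreated female mice of the same strain and age. A second pair of groups is used below where the change after LPS is set beside that after another injury: 3 ISO day 1 hearts, taken 1 day after 300 mg/kg of isoproterenol (ISO), which activates beta-adrenergic receptors, and 4 ISO baseline hearts from the untreated mice of that arm. All of these mice shared sex, strain and age. No vehicle group enters the comparison, so the effects of the injection itself and of LPS cannot be told apart.

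LPS is the outer membrane glycolipid of Gram-negative bacteria. It is bound by LBP and CD14 and signals through Toll-like receptor 4 (TLR4), by a MyD88 branch that releases NF-kB and by a TRIF branch that activates interferon regulatory factors. Cytokines, interferons, glucocorticoids and recruited leukocytes then act on cardiomyocytes and on the vascular and stromal cells around them, and reversible contractile depression is the known cardiac feature of such endotoxaemia.

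Of the genes in the files, 15732 passed the count filter, and edgeR's quasi-likelihood test with Benjamini-Hochberg adjustment called 10410 of them at an adjusted p under 0.05. The called genes divided into 5220 that were higher and 5190 that were lower in LPS day 1 hearts, 33.2% and 33.0% of those tested. These shares are the background for every count of members below, since a gene taken at random from the table was called in 66.2% of cases. In any list below, a gene with almost no reads in LPS baseline hearts passed the count filter only through other groups. Counts of risers lean upward through such members. At least 2-fold higher genes numbered 1775 (11.3%) and at least 2-fold lower genes 1949 (12.4%), and 709 (4.51%) and 554 (3.52%) passed 4-fold. For 4612 genes (29.3%) all 4 LPS day 1 libraries lay above all 4 LPS baseline libraries, and for 4544 (28.9%) below. A lack of overlap, reported below for many genes, was therefore common among all genes tested. All changes are log2 changes of LPS day 1 over LPS baseline with the standard error of the fit (SE), and adjusted p-values are from this edgeR fit unless another source is named. Levels in CPM (counts scaled to library size) compare a gene between hearts, and TPM (length-scaled abundance) compares genes with each other.

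The libraries held 22828849 to 29448916 reads in LPS day 1 hearts and 24957414 to 28446262 reads in LPS baseline hearts. LPS day 1 replicates 1 and 2 resembled each other, as did replicates 3 and 4: the chi-square per degree of freedom between their counts was 13.96 and 11.01 within these pairs and 31.98 to 48.34 across them, against 4.217 to 9.859 between any 2 LPS baseline hearts. The labels give no batch that matches these pairs. Without replicates 1 and 2 the fit called 4733 genes higher and 4635 lower, and without replicates 3 and 4 it called 5100 and 5083. Defining cardiomyocyte transcripts were present at high levels in both groups, with Myh6, the adult myosin heavy chain, at 8700.3 ± 1014 TPM in LPS day 1 hearts and 12668 ± 124 TPM in LPS baseline hearts (SD, n = 4 each) and Tnni3, cardiac troponin I, at 4147 ± 319.6 TPM in LPS day 1 hearts and 5594 ± 78.2 TPM in LPS baseline hearts (SD, n = 4 each).

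The transcripts that gained the most abundance were metal-binding and acute-phase transcripts together with Ankrd1 and Pdk4. Among nuclear protein-coding genes, the largest gains of TPM were those of the metallothioneins Mt1 and Mt2, Lcn2, Ankrd1, Lrg1, Saa3, Pdk4 and Fth1. Lcn2 encodes lipocalin-2, which withholds iron from bacteria by binding their siderophores (ENSMUSG00000026822, chromosome 2, 32384633 to 32388252, minus strand, GRCm38, protein-coding), and it had 2069, 2313, 2039.7 and 1634 CPM in LPS day 1 hearts, against 2.64, 4.97, 1.74 and 4.79 CPM in LPS baseline hearts (log2 change of 9.15, SE 0.26, adjusted p = 6.54e-18). Every LPS day 1 heart stood far above every baseline heart for Lcn2. Pdk4, the kinase that shuts pyruvate dehydrogenase, had 4874, 6118, 3923 and 3883 CPM in LPS day 1 hearts, against 218, 214, 290.4 and 193 CPM in LPS baseline hearts (log2 change of 4.36, SE 0.48, adjusted p = 4.05e-08). Ankrd1, a stretch-responsive sarcomeric and nuclear protein, had 5714, 6674, 3229 and 2989.7 CPM in LPS day 1 hearts, against 502, 409.9, 517 and 431 CPM in LPS baseline hearts (log2 change of 3.32, SE 0.28, adjusted p = 4.79e-10), and its level was higher in LPS day 1 replicates 1 and 2 than in replicates 3 and 4. The largest losses of TPM among such genes were all of transcripts of the cardiomyocyte: Actc1, Myh6, Myl2, Pln, Tnni3, Atp2a2, Ckm and Fhl2.

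**Figure D1:**
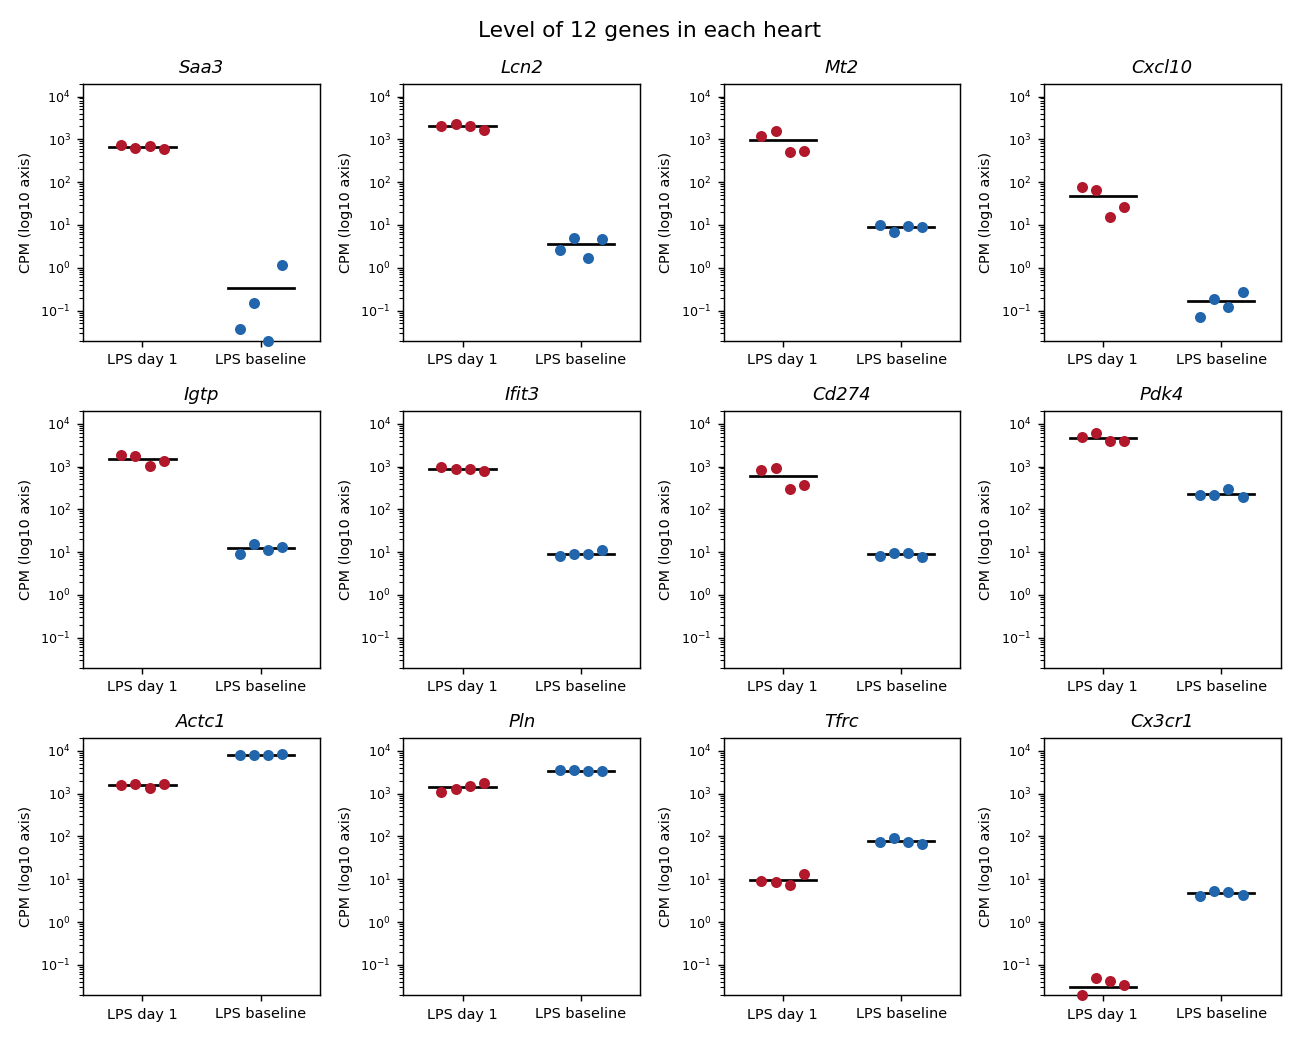
Level of 12 genes in each heart, in CPM on a log10 axis, with LPS day 1 hearts left and LPS baseline hearts right in each panel; points are libraries and the bar is the mean of 4, and a point drawn on the bottom edge is a library at 0. Saa3, Lcn2 and Cxcl10 did not overlap between the groups and were higher in LPS day 1 hearts, while Actc1, Tfrc and Cx3cr1 were lower in each of them.

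Promoters of the genes that rose at least 2-fold were searched for interferon-response and NF-kB sequence motifs, as a description with no test. RefSeq promoters (GRCm38.p6, 250 bases before to 50 after each start) were available for 1089 of the 1442 protein-coding genes at least 2-fold higher and for 1241 of the 1665 at least 2-fold lower, and 3 motifs were searched independently on both strands, so that matches of different motifs may overlap. The interferon-stimulated response element core, TTTCNNTTTC, occurred in 8.44% of 1387 promoters of higher genes and 2.48% of 1613 promoters of lower genes, against 3.18% of promoters of all tested protein-coding genes and 3.44% of all promoters in the table. The gamma-activated site, TTCNNNGAA, which STAT dimers bind, occurred in 10.0% of promoters of higher genes and 5.89% of promoters of lower genes, against 6.86% and 8.30% of these wider sets. The kappaB motif GGGNNTTTCC occurred in 3.17% of promoters of higher genes and 1.80% of promoters of lower genes, against 1.67% and 1.63%. Within families, the interferon-stimulated element stood in promoters of 12 of the 19 antiviral genes, 4 of the 4 guanylate-binding protein genes and 5 of the 6 immunity-related GTPase genes that had an entry.

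Promoters of 6 genes described below are printed to show where these elements lie, with the matched letters in capitals and the rest in lower case, each on the strand of its gene. The first 4 hold the interferon-stimulated element: Gbp2 (chr3:142620413-142620712, plus strand), Igtp (chr11:58199306-58199605, plus strand), Ifit3 (chr19:34583279-34583578, plus strand, with 2 matches) and Cxcl10 (chr5:92348840-92349139, minus strand). The last 2 hold the kappaB motif: Cxcl1 (chr5:90890995-90891294, plus strand, with 2 matches) and Nfkbia (chr12:55492598-55492897, minus strand). Counting back from the start site, the first match begins at base -59 in Gbp2, -34 in Igtp, -156 in Ifit3, -213 in Cxcl10, -89 in Cxcl1 and -29 in Nfkbia. A match describes the letters and is not a measurement of binding.
Gbp2: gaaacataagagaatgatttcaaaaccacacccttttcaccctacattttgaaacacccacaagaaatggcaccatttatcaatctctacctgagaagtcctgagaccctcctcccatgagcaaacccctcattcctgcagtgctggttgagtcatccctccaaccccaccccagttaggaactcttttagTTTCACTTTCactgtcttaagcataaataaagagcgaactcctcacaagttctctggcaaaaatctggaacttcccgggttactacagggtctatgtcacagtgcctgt
Igtp: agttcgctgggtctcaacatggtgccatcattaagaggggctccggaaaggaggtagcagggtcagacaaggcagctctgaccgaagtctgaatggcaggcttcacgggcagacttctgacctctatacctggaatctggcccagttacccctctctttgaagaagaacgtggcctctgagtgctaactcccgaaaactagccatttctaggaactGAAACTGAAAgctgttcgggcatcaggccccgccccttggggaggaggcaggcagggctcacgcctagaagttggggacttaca
Ifit3: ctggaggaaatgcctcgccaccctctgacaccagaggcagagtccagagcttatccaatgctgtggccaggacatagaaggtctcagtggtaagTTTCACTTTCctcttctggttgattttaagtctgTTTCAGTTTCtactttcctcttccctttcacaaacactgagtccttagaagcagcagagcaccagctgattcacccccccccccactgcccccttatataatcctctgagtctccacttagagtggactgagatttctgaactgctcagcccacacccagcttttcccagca
Cxcl10: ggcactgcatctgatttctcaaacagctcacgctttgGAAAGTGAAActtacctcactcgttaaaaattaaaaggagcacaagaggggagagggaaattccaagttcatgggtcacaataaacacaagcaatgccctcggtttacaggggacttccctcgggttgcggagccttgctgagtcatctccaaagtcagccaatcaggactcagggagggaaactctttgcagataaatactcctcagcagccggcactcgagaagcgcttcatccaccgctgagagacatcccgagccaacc
Cxcl1: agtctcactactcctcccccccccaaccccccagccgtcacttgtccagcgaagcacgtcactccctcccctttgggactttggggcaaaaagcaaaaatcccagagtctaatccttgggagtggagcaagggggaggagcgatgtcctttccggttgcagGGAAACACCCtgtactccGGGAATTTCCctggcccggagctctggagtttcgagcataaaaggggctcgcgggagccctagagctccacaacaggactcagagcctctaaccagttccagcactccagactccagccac
Nfkbia: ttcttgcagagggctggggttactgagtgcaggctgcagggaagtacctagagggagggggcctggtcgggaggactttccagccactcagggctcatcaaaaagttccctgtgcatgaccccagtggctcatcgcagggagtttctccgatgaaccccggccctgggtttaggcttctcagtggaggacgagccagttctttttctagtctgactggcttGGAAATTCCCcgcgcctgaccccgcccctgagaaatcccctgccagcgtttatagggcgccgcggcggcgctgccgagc

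Genes of endotoxin recognition and its adaptors were mostly higher on day 1. Of 20 members of this list, 12 rose and 1 fell, with a median change of 0.67 against 0.00 over all genes tested. Lbp, which carries LPS to CD14, rose by 2.54 (SE 0.12, adjusted p = 5.18e-14), and Cd14 by 1.70 (SE 0.16, adjusted p = 4.3e-09). Tlr4 itself had 11.1, 10.7, 13.5 and 13.1 CPM in LPS day 1 hearts, against 6.45, 7.34, 8.81 and 9.97 CPM in LPS baseline hearts (log2 change of 0.58, SE 0.14, adjusted p = 0.000991). The LPS day 1 hearts thus held a little more Tlr4 than the baseline hearts. Tlr2, which senses bacterial lipoproteins, rose by 2.56 and the shared adaptor Myd88 by 2.45. Irak3, an inactive kinase that blocks this route, had 42.2, 43.2, 29.8 and 32.9 CPM in LPS day 1 hearts, against 4.35, 3.63, 3.83 and 4.63 CPM in LPS baseline hearts (log2 change of 3.17, SE 0.16, adjusted p = 1.15e-13). That was the largest rise of the list, and the groups did not overlap. Ticam2, the adaptor that links TLR4 to TRIF, was the member that fell, at -1.02 (adjusted p = 0.0034) from a level under 1 CPM in both groups.

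Most genes of NF-kB and its feedback were higher. Of 19 members 16 rose and 1 fell, with a median of 1.33. The subunit gene Nfkb1 and the feedback gene Dusp1 were not called. Nfkbia, which encodes the inhibitor IkB-alpha and holds a kappaB motif in the promoter printed above, had 145, 161, 113 and 109 CPM in LPS day 1 hearts, against 41.7, 25.8, 26.9 and 27.8 CPM in LPS baseline hearts (log2 change of 2.11, SE 0.14, adjusted p = 8.04e-12). Nfkbiz, a nuclear IkB that licenses secondary response genes, had 39.4, 45.3, 25.5 and 28.8 CPM in LPS day 1 hearts, against 1.48, 1.15, 1.9 and 1.42 CPM in LPS baseline hearts (log2 change of 4.54, SE 0.22, adjusted p = 3.54e-14), and again no LPS day 1 heart reached down to the baseline range. Tnfaip3, the ubiquitin-editing enzyme A20, rose by 3.42, Zc3h12a, the RNase regnase-1, by 2.88, and Zfp36, which destabilises cytokine mRNA, by 1.85. The transcription factor Cebpd rose by 3.11. Acod1, which makes itaconate from cis-aconitate in activated macrophages, had 11.6, 10.2, 6.54 and 8.89 CPM in LPS day 1 hearts, against 0, 0.115, 0.0395 and 0 CPM in LPS baseline hearts (log2 change of 7.75, SE 0.50, adjusted p = 5.41e-12), and all of its day 1 values stood above all baseline values. Tnip3, an A20-binding inhibitor, was the member that fell, at -1.73 (adjusted p = 9.61e-06).

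Transcripts of the cytokines themselves were scarce at 1 day, while several of their inhibitors rose. Il6 had 88 reads over the LPS day 1 hearts against 3 over the LPS baseline hearts, a ratio of 30.5 with an interval of 10.1 to 151 (95% exact counting interval here and below, covering counting error alone). Tnf had 2.19, 2.19, 1.32 and 1.37 CPM in LPS day 1 hearts, against 0.0724, 0.382, 0.158 and 0.158 CPM in LPS baseline hearts (log2 change of 3.17, SE 0.40, adjusted p = 3.36e-07). Tnf stayed under 3 CPM in every heart, although the groups did not overlap. Il1b had 30 reads over the LPS day 1 hearts against 13 over the LPS baseline hearts and did not pass the count filter, and the interferon genes Ifnb1 and Ifng had 0 and 2 reads over the LPS day 1 hearts against 0 and 1 over the LPS baseline hearts. On the inhibitory side, Il1rn, the interleukin-1 receptor antagonist, had 8.71, 7.02, 4.39 and 3.11 CPM in LPS day 1 hearts, against 0.0362, 0.153, 0.158 and 0.0395 CPM in LPS baseline hearts (log2 change of 5.85, SE 0.56, adjusted p = 4.06e-09). The decoy receptor Il1r2 had 137 reads over the LPS day 1 hearts against 0 over the LPS baseline hearts, at least 38.1-fold higher (lower limit of the same interval). Il18bp, the binding protein of interleukin-18, rose by 3.20 (SE 0.12, adjusted p = 1.26e-15). Of the interleukin-1 and tumour necrosis factor list, 11 of 16 tested members rose (7 to 12 across the processing alternatives) and 2 fell. Among them Il1r2 passed the count filter only through groups in which it is high.

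Receptor chains, the transcription factor and an inhibitor of the interleukin-6 family were higher. Of 16 members 11 rose and 2 fell. Stat3, the transcription factor of this family, had 494, 503, 475 and 429.5 CPM in LPS day 1 hearts, against 104, 101, 115 and 119.9 CPM in LPS baseline hearts (log2 change of 2.11, SE 0.07, adjusted p = 1.21e-16). Socs3, which blocks the shared receptor chain, had 62.9, 83.9, 23 and 34.2 CPM in LPS day 1 hearts, against 2.43, 4.93, 4.58 and 4.35 CPM in LPS baseline hearts (log2 change of 3.64, SE 0.32, adjusted p = 9.43e-10), and neither gene overlapped between the groups. Osmr, the oncostatin M receptor chain that cardiomyocytes carry, rose by 2.96 and Il6ra by 2.33. Lifr, the receptor chain for leukaemia inhibitory factor, fell by 1.04 (adjusted p = 1.75e-09). Csf3, the granulocyte growth factor, had 18.4, 18.4, 6.62 and 7.39 CPM in LPS day 1 hearts, against 0, 0.153, 0 and 0 CPM in LPS baseline hearts (log2 change of 8.20, SE 0.58, adjusted p = 1.91e-10), and its 4 day 1 values fell into the pairs described above.

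Transcripts of acute-phase proteins, best known as liver products, were higher in the heart. Of 22 members 15 passed the count filter, in part through the groups in which they are high, and each of these rose. Their median of 7.13 became 5.68 with log2(TPM + 0.1) and 3.85 with log2(TPM + 1), and 7 members, among them the fibrinogen genes and Saa2, were too low to test. Saa3, a serum amyloid A of extrahepatic tissue (ENSMUSG00000040026, chromosome 7, 46711998 to 46715700, minus strand, GRCm38, protein-coding), had 727, 617, 713 and 601 CPM in LPS day 1 hearts, against 0.0362, 0.153, 0 and 1.19 CPM in LPS baseline hearts (log2 change of 10.93, SE 0.36, adjusted p = 8e-17). That was the largest rise among protein-coding genes whose groups did not overlap and whose higher group averaged at least 5 CPM. Lrg1, a leucine-rich glycoprotein that acts on endothelial TGF-beta signalling, had 2127, 2314, 2632 and 2136 CPM in LPS day 1 hearts, against 46, 51, 40.1 and 39.3 CPM in LPS baseline hearts (log2 change of 5.71, SE 0.16, adjusted p = 4.66e-18). Serpina3n, a secreted inhibitor of serine proteases, rose by 7.56 (SE 0.28, adjusted p = 5.1e-16), and Ptx3, the long pentraxin of innate immunity, by 7.78 (SE 0.61, adjusted p = 1.57e-10). Serpina3f, Serpina3g and Serpina3m are closely similar neighbours of Serpina3n on chromosome 12, so the division of reads among them is uncertain. Hp, haptoglobin, which clears free haemoglobin, had 26.6, 18.7, 37.4 and 23.5 CPM in LPS day 1 hearts, against 0.0724, 0.153, 0.158 and 0.158 CPM in LPS baseline hearts (log2 change of 7.58, SE 0.42, adjusted p = 5.11e-13). Lcn2 is also a neutrophil granule gene. The neutrophil marker list, without Lcn2, summed to 54.2 to 67.6 CPM in LPS day 1 hearts, against 2.43 to 3.24 CPM in LPS baseline hearts. Hdc, which is expressed in several cell types, was the largest contributor to that sum. The part of neutrophils in the rise of the acute-phase list was not tested.

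The metallothioneins Mt1 and Mt2 rose, iron genes moved in both directions and the transferrin receptor fell. Of 10 metallothionein and zinc genes 6 rose and 1 fell. Mt2 had 1178, 1595, 504 and 527 CPM in LPS day 1 hearts, against 10.1, 6.8, 9.48 and 9.02 CPM in LPS baseline hearts (log2 change of 6.75, SE 0.46, adjusted p = 1.78e-11), and Mt1 had 2201, 2811, 1269 and 1354 CPM in LPS day 1 hearts, against 93.5, 89.2, 87.2 and 89.2 CPM in LPS baseline hearts (log2 change of 4.41, SE 0.20, adjusted p = 1.24e-14). Both metal-binding genes were higher in LPS day 1 replicates 1 and 2 than in replicates 3 and 4, and neither overlapped the baseline range. The zinc importer Slc39a14, which interleukin-6 induces in liver, rose by 1.33. In the iron list 9 of 15 members rose and 5 fell. Hmox1, which opens haem and frees its iron, rose by 3.88 (SE 0.40, adjusted p = 1.4e-08), ceruloplasmin (Cp), a ferroxidase, by 2.16, the iron exporter Slc40a1 by 1.03 and the ferritin heavy chain Fth1 by 0.66. Tfrc, the receptor that brings transferrin-bound iron into the cell, had 9.04, 8.82, 7.41 and 13 CPM in LPS day 1 hearts, against 75.7, 94, 74.2 and 65.8 CPM in LPS baseline hearts (log2 change of -3.01, SE 0.38, adjusted p = 3.59e-07). Every LPS day 1 heart lay far below every baseline heart for Tfrc. Hamp, the hormone hepcidin that removes the iron exporter, had 114 reads over the LPS day 1 hearts against 0 over the LPS baseline hearts. That was at least 31.6-fold higher (lower limit of the exact counting interval). Trf, transferrin, was lower at -1.74 and the endosomal ferrireductase Steap3 at -1.43 (adjusted p = 2.57e-11 and 1.17e-11).

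Interferon signalling genes were mostly higher, with interferon transcripts at or near 0. Of 15 genes of the type I pathway 12 rose and 2 fell, and of 9 genes of the interferon-gamma route 7 rose and 1 fell. Irf7, the amplifier of type I interferon responses, had 479, 426, 489 and 437 CPM in LPS day 1 hearts, against 8.94, 9.75, 10.5 and 11.5 CPM in LPS baseline hearts (log2 change of 5.49, SE 0.19, adjusted p = 1.16e-16). Irf1, a transcription factor that interferon-gamma induces, had 159, 162, 63.5 and 99.8 CPM in LPS day 1 hearts, against 16.7, 19.8, 18.6 and 18.2 CPM in LPS baseline hearts (log2 change of 2.72, SE 0.19, adjusted p = 2.1e-11). Neither gene overlapped between the groups. Stat2 rose by 2.80, Usp18, a protease that dampens the type I receptor, by 4.33, and Socs1, which inhibits JAK kinases, by 3.95. The receptor chains did not move together: Ifnar2 rose by 0.88 and Ifngr1 by 0.52, and Ifngr2 fell by 1.57 (SE 0.07, adjusted p = 5.08e-15).

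Antiviral effector genes rose almost without exception. Of 22 members 21 rose, with a median of 3.05 for the list, and Ifit1bl1 was lower at -0.63 (adjusted p = 0.0124), a call that was lost without LPS baseline replicate 3 and without LPS day 1 replicates 3 and 4 (adjusted p = 0.0527 and 0.11). Ifit3, which helps IFIT1 to bind foreign RNA ends, had 997, 886, 856 and 778 CPM in LPS day 1 hearts, against 7.93, 9.17, 8.89 and 11 CPM in LPS baseline hearts (log2 change of 6.57, SE 0.24, adjusted p = 3.89e-16). Rsad2, viperin, which makes a chain-terminating nucleotide, had 326, 259, 242 and 202 CPM in LPS day 1 hearts, against 14.8, 19, 17.3 and 16.2 CPM in LPS baseline hearts (log2 change of 3.93, SE 0.17, adjusted p = 1e-14). Both sets of 4 hearts were fully separate for these genes. Isg15, a ubiquitin-like modifier, rose by 4.94, Oasl1 by 4.90, and Ifitm3, which blocks viral entry, by 2.87. Sensors of nucleic acids rose in 13 of 16, among them Zbp1, a Z-form nucleic acid sensor, by 4.49 and the RNA helicases Ifih1 and Ddx58 by 2.86 and 2.86, while Mavs, the mitochondrial adaptor of both helicases, fell by 1.06 (adjusted p = 1.36e-07).

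Interferon-inducible GTPase genes rose. All 10 tested guanylate-binding protein genes and all 10 tested immunity-related GTPase genes rose, with medians of 3.77 and 5.00. These proteins coat and break the vacuoles of intracellular microbes. Igtp (Irgm3, ENSMUSG00000078853, chromosome 11, 58199556 to 58207591, plus strand, GRCm38, protein-coding) had 1867, 1794, 1009.9 and 1329.9 CPM in LPS day 1 hearts, against 8.94, 15.4, 11.4 and 13.3 CPM in LPS baseline hearts (log2 change of 6.93, SE 0.25, adjusted p = 3.64e-16). Iigp1 had 2005, 1949, 1318 and 1621 CPM in LPS day 1 hearts, against 20.3, 27.9, 24.6 and 25.3 CPM in LPS baseline hearts (log2 change of 6.13, SE 0.20, adjusted p = 8e-17). Gbp2 had 654, 376, 452 and 413 CPM in LPS day 1 hearts, against 10.6, 15, 15.4 and 11.3 CPM in LPS baseline hearts (log2 change of 5.18, SE 0.18, adjusted p = 1.16e-16), and for all 3 of these GTPases the groups were far apart. On the length-scaled measure Igtp averaged 859 TPM and Iigp1 785 TPM in LPS day 1 hearts. Members of both families are close copies of their neighbours, Tgtp1 and Tgtp2 above all, so values of single members are uncertain where the authors' counting split reads.

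Several of the induced families lie together on the chromosomes. Runs of at least 4 neighbouring tested protein-coding genes, each called and at least 2-fold higher, numbered 21 and held 98 genes, and the direction of their members follows from this definition. Members of a family that lie outside a run are not counted in it. The longest was the Schlafen cluster on chromosome 11 (82951349 to 83215154), whose 7 genes Slfn5, Slfn9, Slfn8, Slfn2, Slfn1, Slfn4 and Slfn3 rose by 1.02 to 5.39. Next came 6 genes of the Ifi200 cluster on chromosome 1 (173468485 to 173766943), from Ifi206 to Ifi204, which rose by 2.43 to 4.36, and 6 genes of the Serpina3 cluster on chromosome 12 (104146382 to 104414329), 1 of which, Serpina3m, had 554 reads over the LPS day 1 hearts against 1 over the LPS baseline hearts, a ratio of 576 with an interval of 103 to 22800. The Gbp cluster on chromosome 5 (105014150 to 105293698) gave a further 6 genes with rises of 2.68 to 7.16. On chromosome 17 the MHC class I genes H2-D1, H2-Q4, H2-Q6, H2-Q7 and H2-Q10 formed a run with rises of 2.27 to 3.61, and Psmb9, Tap1, Psmb8 and Tap2, also within the MHC, formed another with rises of 1.66 to 4.62. Coordinates are those of GRCm38, and neighbours in these families resemble each other in sequence.

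Antigen presentation divided between its branches: class I genes and the immunoproteasome rose and class II genes fell. Of 20 class I genes 16 rose and 2 fell, among them the chaperone gene Canx at -0.39 (adjusted p = 0.000367). Tap1, a chain of the peptide transporter, had 307, 268, 212 and 250.3 CPM in LPS day 1 hearts, against 9.09, 12.7, 11.6 and 8.86 CPM in LPS baseline hearts (log2 change of 4.62, SE 0.16, adjusted p = 1.47e-16). Nlrc5, the transactivator of class I genes, rose by 3.50 and B2m, their shared light chain, by 2.34. Psmb8, a catalytic subunit of the immunoproteasome, had 116, 88.4, 113 and 108 CPM in LPS day 1 hearts, against 8.73, 10.8, 10.9 and 9.89 CPM in LPS baseline hearts (log2 change of 3.40, SE 0.11, adjusted p = 7.04e-17), and its groups, like those of Tap1, did not overlap. The 5 immunoproteasome genes all rose, with a median of 2.73, and 27 of 28 constitutive proteasome genes rose with a median of 0.59, led by Psma5 at 1.36. H2-Eb1, a class II chain, had 5.51, 8.32, 5.38 and 4.24 CPM in LPS day 1 hearts, against 23.5, 23.3, 21.3 and 25.7 CPM in LPS baseline hearts (log2 change of -2.02, SE 0.16, adjusted p = 2.95e-10). All LPS day 1 hearts lay below all baseline hearts for H2-Eb1, and 7 of 8 class II genes fell with a median of -1.11.

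Cd274, which encodes the inhibitory ligand PD-L1, was higher in every LPS day 1 heart. It had 846, 922, 301 and 370.3 CPM in LPS day 1 hearts, against 8.29, 9.44, 9.79 and 7.71 CPM in LPS baseline hearts (log2 change of 6.11, SE 0.29, adjusted p = 2.69e-14), and LPS day 1 replicates 1 and 2 stood above replicates 3 and 4. Of 11 genes of inhibitory immune receptors and ligands 8 rose (4 to 8 across the processing alternatives) and 2 fell. Lgals9, galectin-9, rose by 1.61 and Lag3 by 2.68, while Sirpa, the receptor for CD47, fell by 1.14 (adjusted p = 5.74e-09).

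Most CXC and CX3C chemokine genes rose, and CC chemokine genes moved in both directions. Of 14 CXC and CX3C genes 11 rose and 2 fell, with a median of 5.23, and of 15 CC genes 8 rose (4 to 9 across the processing alternatives) and 4 fell. Cxcl3 and Cxcl11 had no reads in LPS baseline hearts and passed the count filter only through other groups. The CXC and CX3C median was 2.51 with log2(TPM + 0.1) and 1.32 with log2(TPM + 1). Cxcl10, a ligand of CXCR3 on T and NK cells, had 78.9, 65.9, 15 and 26.3 CPM in LPS day 1 hearts, against 0.0724, 0.191, 0.118 and 0.277 CPM in LPS baseline hearts (log2 change of 8.11, SE 0.53, adjusted p = 8.29e-12). Cxcl9, another CXCR3 ligand, had 334, 235, 223 and 179 CPM in LPS day 1 hearts, against 3.87, 4.2, 5.09 and 4.79 CPM in LPS baseline hearts (log2 change of 5.76, SE 0.22, adjusted p = 7.34e-16). Cxcl10 was higher in LPS day 1 replicates 1 and 2 than in replicates 3 and 4 and so was Cxcl9, by less. Among neutrophil attractants Cxcl1 had 26.6, 37.7, 8.53 and 15 CPM in LPS day 1 hearts, against 0.29, 0.42, 0.197 and 0.514 CPM in LPS baseline hearts (log2 change of 5.93, SE 0.46, adjusted p = 1.56e-10) and Cxcl5 rose by 6.11. Ccl5 rose by 7.48 and Ccl2, the monocyte attractant, by 4.29. Cxcl12, which retains leukocyte and endothelial progenitors through CXCR4, had 62.4, 52, 65 and 67.4 CPM in LPS day 1 hearts, against 183, 185, 209 and 204 CPM in LPS baseline hearts (log2 change of -1.66, SE 0.09, adjusted p = 3.85e-13). Cxcl12 fell in all 4 hearts, and so did Ccl24 and Ccl21a, at -3.87 and -1.66.

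The summed marker lists of neutrophils and recruited monocytes were higher in every LPS day 1 heart, and that of resident macrophages was lower. Single monocyte markers did not all move with their sum, and Ccr2 was lower. In bulk RNA, fewer cells of a type and less of its RNA per cell cannot be told apart. Of 20 neutrophil genes 13 passed the count filter, some of them only through the groups in which they are high, so that no count of risers is read from them, and the list summed to 54.2 to 67.6 CPM in LPS day 1 hearts, against 2.43 to 3.24 CPM in LPS baseline hearts. Ngp, a neutrophil granule protein, had 587 reads over the LPS day 1 hearts against 1 over the LPS baseline hearts, a ratio of 610 with an interval of 109 to 24200, and Clec4e, a receptor for mycobacterial glycolipid, had 324 reads over the LPS day 1 hearts against 1 over the LPS baseline hearts, a ratio of 337 with an interval of 60.1 to 13300. S100a9, a chain of calprotectin, had 5.39, 4.73, 4.06 and 2.94 CPM in LPS day 1 hearts, against 0.0362, 0.115, 0.079 and 0.0791 CPM in LPS baseline hearts (log2 change of 5.71, SE 0.52, adjusted p = 1.75e-09). The defining marker Ly6g had 7 reads over the LPS day 1 hearts against 0 over the LPS baseline hearts and did not pass the count filter. Elane, Mpo, Il1f9, Stfa2l1 and Wfdc21, also too low to test, had 6, 15, 11, 3 and 11 reads over the LPS day 1 hearts and 0 over the LPS baseline hearts. Hdc, which makes histamine in several cell types, was the largest contributor to the sum, at 36 CPM in LPS day 1 hearts and 1.2 CPM in LPS baseline hearts.

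Markers of recruited monocytes rose in 10 of 14 (6 to 10 across the processing alternatives) and fell in 1. Among the risers, Plac8 and Arg1, with almost no reads in LPS baseline hearts, passed the count filter only through other groups. The list summed to 127 to 163 CPM in LPS day 1 hearts, against 76.6 to 102 CPM in LPS baseline hearts. Plac8 had 353 reads over the LPS day 1 hearts against 3 over the LPS baseline hearts, a ratio of 122 with an interval of 41.5 to 596. Itgam, the integrin chain CD11b, had 22, 20.8, 35 and 23.5 CPM in LPS day 1 hearts, against 3.08, 3.02, 4.7 and 3.28 CPM in LPS baseline hearts (log2 change of 2.85, SE 0.22, adjusted p = 1.03e-10), and the groups were apart. Ccr2, the receptor that draws monocytes out of the marrow, was the member that fell, at -1.73 (adjusted p = 0.00307). Arg1 had 34 reads over the LPS day 1 hearts against 0 over the LPS baseline hearts. That was at least 9.07-fold higher (lower limit of the exact counting interval).

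Of 15 resident macrophage genes 13 fell, and the list summed to 160.3 to 176 CPM in LPS day 1 hearts, against 279.9 to 307 CPM in LPS baseline hearts. Cx3cr1, the fractalkine receptor, had 3 reads over the LPS day 1 hearts against 491 over the LPS baseline hearts, a ratio of 0.00635 with an interval of 0.00131 to 0.0187. Mrc1, the mannose receptor CD206, had 2.79, 4.18, 4.3 and 3.73 CPM in LPS day 1 hearts, against 18.9, 19.3, 24 and 20.7 CPM in LPS baseline hearts (log2 change of -2.47, SE 0.21, adjusted p = 8.45e-10), Cd163, the haemoglobin scavenger receptor, was lower at -2.09 and Mgl2 at -5.22. Lyve1, which marks vessel-associated macrophages and lymphatic endothelium alike, was the member that rose, by 0.84 (adjusted p = 1.59e-06). Lyz2, lysozyme M, fell by 2.64, whereas Fcgr4 rose by 4.72 and Marco by 5.52. NK and cytotoxic genes rose in 6 of 9 at low levels (2 to 6 across the processing alternatives), with Gzmb by 4.10 (adjusted p = 1.05e-06). B cell genes fell in 3 of 6 (1 to 4 across alternatives), with Ighm at -2.44. The T cell markers were divided, with 3 higher and 2 lower of 9 (0 to 3 and 1 to 3 across alternatives).

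**Figure D2:**
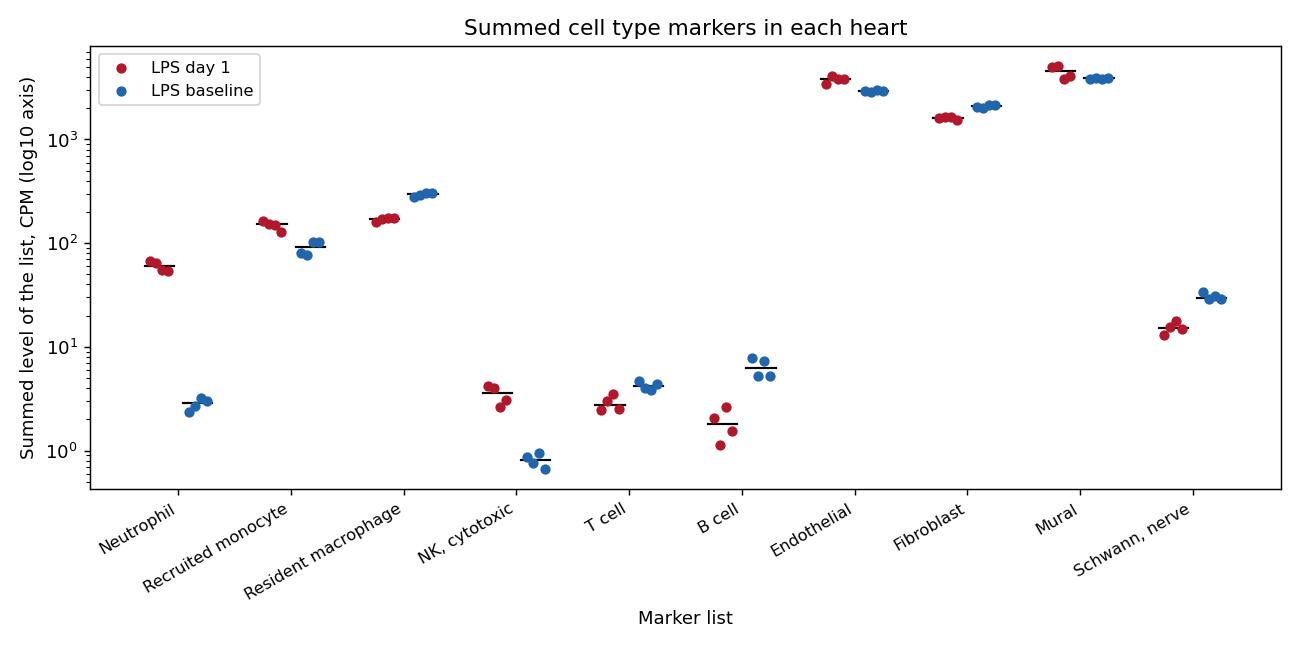
Summed level of the marker list of each cell type in each heart, in CPM on a log10 axis, with LPS day 1 hearts left of LPS baseline hearts within each list; points are libraries and bars are medians. The points sum only the members that passed the count filter. Over all 20 members the neutrophil sum was 54.2 to 67.6 CPM in LPS day 1 hearts, against 2.43 to 3.24 CPM in LPS baseline hearts. Hdc, which is expressed in several cell types, contributed most to it. The resident macrophage sum was lower in LPS day 1 hearts.

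Endothelial activation genes rose, and endothelial identity genes moved in both directions. Selp, P-selectin, on which leukocytes roll, had 33.3, 34.9, 13.5 and 17.8 CPM in LPS day 1 hearts, against 0.109, 0.229, 0.395 and 0.277 CPM in LPS baseline hearts (log2 change of 6.61, SE 0.41, adjusted p = 3.53e-12). Icam1, which binds leukocyte integrins, had 116, 112, 91.7 and 114 CPM in LPS day 1 hearts, against 6.26, 8.37, 7.78 and 8.66 CPM in LPS baseline hearts (log2 change of 3.80, SE 0.17, adjusted p = 1.14e-14). Every LPS day 1 heart lay far above every baseline heart for both adhesion genes. Vcam1 rose by 1.82 and Sele, E-selectin, by 2.80, and of 13 adhesion genes 10 rose and 1 fell. Madcam1, without reads in LPS baseline hearts, passed the count filter only through other groups. Of the identity genes, 10 rose and 7 fell of 24, with a median of 0.09. The identity list summed to 3451 to 4096 CPM in LPS day 1 hearts, against 2862 to 3017 CPM in LPS baseline hearts. The defining Cdh5, VE-cadherin, was not called at -0.12 (adjusted p = 0.276). Ackr1, the chemokine-binding receptor of venules, rose by 4.17, while Aqp1 was lower at -1.45, Tek, the angiopoietin receptor TIE2, at -1.15 and Vwf at -0.94.

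Vascular growth and permeability genes moved in both directions: of 18 tested, 9 rose and 7 fell, with a median of 0.17 that was -0.17 with ISO baseline hearts in place of LPS baseline hearts. Aplnr, the apelin receptor, had 1.79, 1.69, 1.49 and 0.992 CPM in LPS day 1 hearts, against 23.8, 27.9, 35.8 and 41.7 CPM in LPS baseline hearts (log2 change of -4.45, SE 0.27, adjusted p = 2.26e-12). Its ligand Apln was lower at -1.80, Vegfa at -1.55 (SE 0.10, adjusted p = 2.66e-12) and Vegfc at -1.28. Angptl4, an inhibitor of lipoprotein lipase that also acts on vessels, had 176, 293, 144 and 141 CPM in LPS day 1 hearts, against 2.43, 3.9, 4.3 and 2.1 CPM in LPS baseline hearts (log2 change of 5.89, SE 0.56, adjusted p = 3.84e-09), and Pgf, placental growth factor, rose by 4.22. None of Aplnr, Vegfa or Angptl4 overlapped between the groups. Ptgs2, the inducible cyclooxygenase, rose by 3.25. In the coagulation list 11 of 21 rose and 6 fell. Plaur, the urokinase receptor, rose by 4.41 and Fgl2, a membrane prothrombinase, by 2.93, and Plau, urokinase, fell by 2.15. F3, tissue factor, fell by 0.62 (adjusted p = 7.43e-06).

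Contractile transcripts of the cardiomyocyte changed unequally. Actc1, cardiac alpha-actin (ENSMUSG00000068614, chromosome 2, 114047282 to 114053548, minus strand, GRCm38, protein-coding), had 1579, 1692, 1359.6 and 1667 CPM in LPS day 1 hearts, against 8091, 7825, 7901 and 8279 CPM in LPS baseline hearts (log2 change of -2.35, SE 0.13, adjusted p = 4.33e-13). In TPM it averaged 1268 ± 93.3 TPM in LPS day 1 hearts and 6643 ± 320.2 TPM in LPS baseline hearts (SD, n = 4 each). Every LPS day 1 heart lay far below every baseline heart for Actc1. Of 20 sarcomere genes 11 fell and 4 rose, with a median of -0.20. Mybpc3, cardiac myosin-binding protein C, was lower at -0.88 (SE 0.07, adjusted p = 4.01e-10) and Myh6 at -0.58. Pdlim5, a Z-disc adaptor, rose by 1.07 and Des, desmin, by 0.56.

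The natriuretic and fetal genes that mark pressure overload did not move as a group. Nppa, the atrial natriuretic peptide gene, had 143, 116, 91.2 and 99.3 CPM in LPS day 1 hearts, against 87.1, 95.2, 92.9 and 93.1 CPM in LPS baseline hearts (log2 change of 0.29, SE 0.30, adjusted p = 0.402). Nppb stood at 0.38 (SE 0.32, adjusted p = 0.315) and Myh7, the slow myosin heavy chain, at 0.26 (SE 0.26, adjusted p = 0.395), and the groups overlapped for these 3 genes. Myh7 was called higher when the compared groups alone were fitted (0.25, adjusted p = 0.0431). Of 17 members 5 rose and 2 fell. Ankrd2, the skeletal-type relative of Ankrd1, had 27, 34.1, 16.6 and 17 CPM in LPS day 1 hearts, against 0.253, 0.0765, 0.079 and 0.198 CPM in LPS baseline hearts (log2 change of 7.22, SE 0.38, adjusted p = 2.01e-13). Xirp1, an actin-binding protein of intercalated discs, rose by 2.03, and Rcan1, an inhibitor and target of calcineurin, by 1.84.

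Calcium handling genes fell, from the sarcolemmal channel to the sarcoplasmic reticulum. Of 20 members 17 fell and 2 rose, with a median of -0.60. Pln, phospholamban, the brake of the calcium pump, had 1112, 1280.1, 1541 and 1733 CPM in LPS day 1 hearts, against 3591, 3509, 3325 and 3421 CPM in LPS baseline hearts (log2 change of -1.29, SE 0.12, adjusted p = 2.89e-09). Atp2a2, the pump SERCA2 itself, had 9306, 10165, 9014 and 10623 CPM in LPS day 1 hearts, against 13143, 13380.1, 13657 and 13653 CPM in LPS baseline hearts (log2 change of -0.46, SE 0.09, adjusted p = 8.03e-05). Both were lower in each LPS day 1 heart than in any baseline heart, and the fall was larger for Pln. Ryr2, the release channel, was lower at -0.45, Cacna1c, the L-type channel pore, at -0.71 and its subunit Cacnb2 at -2.16 (SE 0.13, adjusted p = 2.04e-12). Camk2d, the main cardiac calmodulin kinase, rose by 0.64.

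Potassium channel genes fell without exception: 19 of 19, with a median of -1.39. Kcnk3, the TASK-1 background channel, had 97, 82.2, 131 and 151 CPM in LPS day 1 hearts, against 470.3, 464, 460.3 and 429.6 CPM in LPS baseline hearts (log2 change of -1.98, SE 0.14, adjusted p = 2.05e-11). Kcnj3, a subunit of the acetylcholine-activated channel, had 10.0, 9.56, 19.5 and 19.3 CPM in LPS day 1 hearts, against 66.7, 68.2, 61.6 and 66.7 CPM in LPS baseline hearts (log2 change of -2.16, SE 0.21, adjusted p = 6.39e-09). The groups did not overlap for either channel. Kcnip2, which sets the transient outward current, was lower at -1.63, Kcnn2, a calcium-activated channel, at -2.68 and Abcc9, a subunit of the ATP-sensitive channel that vascular mural cells also carry, at -1.62. Sodium, pacemaker and gap junction genes divided into 7 higher and 7 lower of 17. Hcn4, the main pacemaker channel of the sinus node, was lower at -1.84 and Gja1, connexin 43, at -1.05. Of 20 genes of adrenergic, muscarinic and cyclic AMP signalling 9 fell and 4 rose. Adrb1, the main cardiac beta receptor, stood at -0.83, the cyclases Adcy5 and Adcy6 at -0.98 and -0.60 and the phosphodiesterase Pde4b at 1.59.

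**Figure D3:**
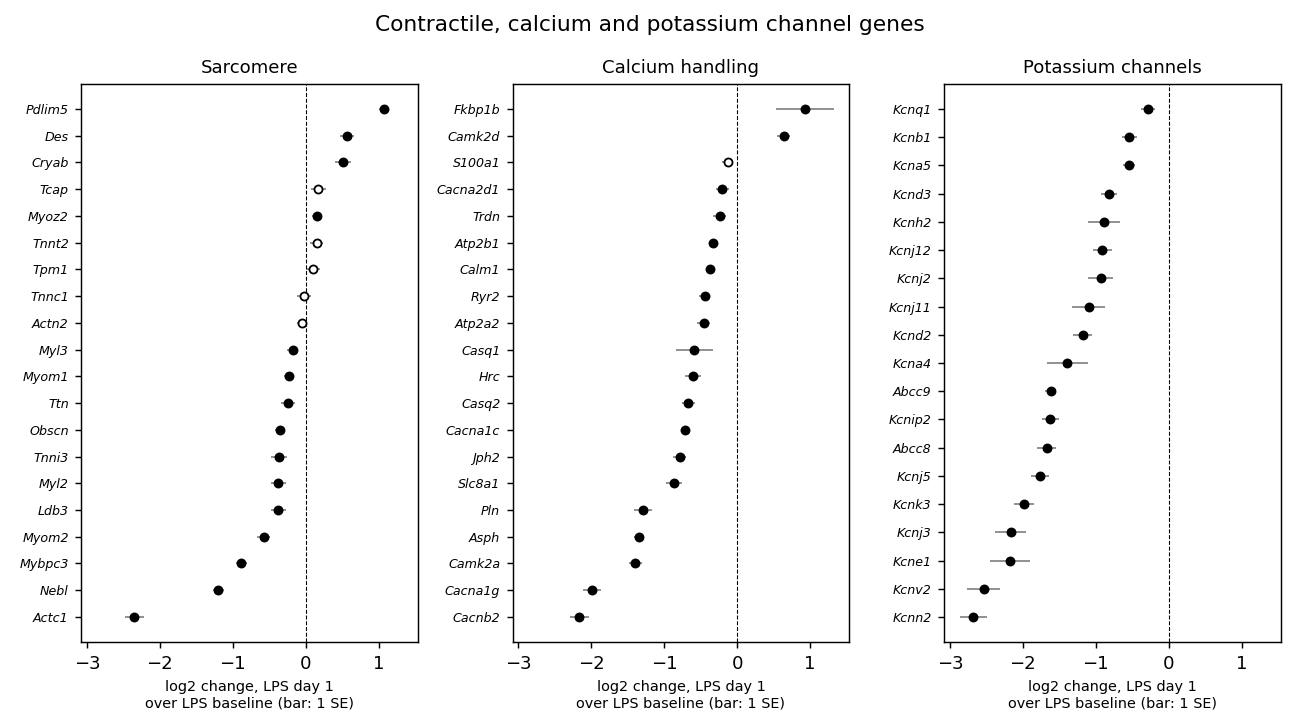
Log2 change of LPS day 1 over LPS baseline for each member of the sarcomere, calcium handling and potassium channel lists; points are estimates, bars are 1 SE and open points were not called. Potassium channel genes all lie left of 0, from -2.68 for Kcnn2, while Pdlim5 and Camk2d lie to the right.

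Genes of fuel use moved in both directions. Among 34 fatty acid genes 14 were higher and 8 lower, and their median change was 0.07. Over all genes tested the shares were 33.2% higher and 33.0% lower. Ucp3, a mitochondrial carrier induced by fatty acids, had 233, 271, 246 and 299 CPM in LPS day 1 hearts, against 40.8, 44.3, 43.8 and 34.6 CPM in LPS baseline hearts (log2 change of 2.68, SE 0.32, adjusted p = 1.66e-07), Plin2, a lipid droplet coat, rose by 2.38 and Pnpla2, adipose triglyceride lipase, by 1.75. The beta-oxidation enzyme Acadm stood at -0.37 and Cpt1b, the carnitine transferase of muscle mitochondria, at -0.40, both called lower. Glucose genes fell in 16 of 29 and rose in 6. Slc2a4, the insulin-regulated transporter GLUT4, had 121, 134, 125 and 156 CPM in LPS day 1 hearts, against 405, 393, 359 and 392 CPM in LPS baseline hearts (log2 change of -1.53, SE 0.09, adjusted p = 3.02e-12), and all LPS day 1 hearts lay below all baseline hearts. Pfkfb3, which makes the activator of glycolysis in stimulated cells, rose by 3.96 (SE 0.16, adjusted p = 1.64e-15), while Pfkfb2, its main cardiac relative, was lower at -2.29 and Pfkm, the muscle phosphofructokinase, at -0.98.

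Most regulators of mitochondria fell, and most subunits of the respiratory chain were not called. Of 19 regulators 14 fell and 2 rose. Esrrg, an orphan nuclear receptor of oxidative metabolism, had 6.62, 8.17, 14.2 and 12.4 CPM in LPS day 1 hearts, against 46.9, 46.8, 44.8 and 44.8 CPM in LPS baseline hearts (log2 change of -2.14, SE 0.14, adjusted p = 9.71e-12), Esrra was lower at -1.44 and the coactivator Ppargc1a at -0.73. The groups did not overlap for Esrrg. Of 29 nuclear respiratory chain genes 9 fell, a count that ranged from 1 to 25 across the processing alternatives, with a median of -0.13, and the lowest change was -0.51, in Ndufs7. Reads of mitochondrially encoded genes made up 26.7% ± 1.45 of LPS day 1 libraries and 28.3% ± 0.755 of LPS baseline libraries (SD, n = 4 each; exact permutation test, two-sided, p = 0.143, or 0.238 after adjustment over 5 library measures). Branched-chain amino acid enzymes fell in 12 of 20, with Ppm1k, the phosphatase that activates their dehydrogenase, lower at -1.02. Of 16 genes of tryptophan and NAD metabolism 9 rose and 4 fell. Nampt, which salvages nicotinamide, rose by 1.56, and the interferon-inducible Parp9 and Parp14 by 3.88 and 3.39, whereas Parp1 fell by 1.03.

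Most antioxidant genes rose, and protein-folding genes were divided. Of 27 antioxidant genes 22 rose, with a median of 0.73. Gclm, the regulatory subunit of glutathione synthesis, had 76.7, 62.6, 56.2 and 55.7 CPM in LPS day 1 hearts, against 18.6, 15.1, 16.3 and 18.2 CPM in LPS baseline hearts (log2 change of 1.88, SE 0.16, adjusted p = 5.92e-10), Txnrd1, thioredoxin reductase, rose by 1.35 and the cystine importer Slc7a11 by 5.95. Txnip, the inhibitor of thioredoxin, rose by 2.16 as well. Of 17 heat shock genes 10 rose and 4 fell, with the small heat shock genes Hspb1 and Hspb7 higher by 1.70 and 1.03 and Hsph1 lower at -1.16. Of 21 unfolded protein response genes 9 rose and 5 fell. Among them Psat1, an enzyme of serine synthesis, rose by 2.24 and the transcription factor Atf4 by 1.12, and Pdia4, a disulfide isomerase of the endoplasmic reticulum, was lower at -0.84. Autophagy and atrophy genes rose in 14 of 20 and fell in 4: Fbxo32, the ubiquitin ligase atrogin-1, by 1.28 and Map1lc3b, the autophagosome protein LC3B, by 1.21. All 23 ribosomal protein genes rose, by a median of 0.63.

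Genes of regulated cell death rose in 19 of 20. Casp4, known as caspase-11 in mice, which binds LPS inside the cell, had 15, 12.4, 9.23 and 9.44 CPM in LPS day 1 hearts, against 0.471, 0.841, 1.07 and 0.83 CPM in LPS baseline hearts (log2 change of 3.84, SE 0.27, adjusted p = 2.29e-11). Mlkl, the executioner of necroptosis, had 14.2, 12.6, 10.3 and 12.6 CPM in LPS day 1 hearts, against 1.34, 1.64, 1.74 and 2.29 CPM in LPS baseline hearts (log2 change of 2.82, SE 0.19, adjusted p = 1.06e-11). The 4 LPS day 1 hearts were above the 4 baseline hearts for both genes. Gsdmd, the pore protein of pyroptosis, rose by 1.31. The survival gene Bcl2l1 had 212, 301, 163 and 163 CPM in LPS day 1 hearts, against 40.8, 40.4, 32.6 and 32.7 CPM in LPS baseline hearts (log2 change of 2.52, SE 0.15, adjusted p = 1.91e-12), again without overlap.

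Glucocorticoid-responsive genes rose in 17 of 19 and the receptor fell. Fkbp5, a chaperone that restrains the glucocorticoid receptor, had 269, 285, 320.2 and 273 CPM in LPS day 1 hearts, against 16.4, 21.1, 13.9 and 17 CPM in LPS baseline hearts (log2 change of 4.07, SE 0.30, adjusted p = 6.81e-11). Cdkn1a, the cell cycle inhibitor p21, had 363, 429.9, 309 and 286 CPM in LPS day 1 hearts, against 48.3, 31.8, 29.1 and 28.5 CPM in LPS baseline hearts (log2 change of 3.33, SE 0.19, adjusted p = 1.04e-12). Neither gene overlapped between the groups. Zbtb16 rose by 1.80 and Per1, a clock gene with glucocorticoid response elements, by 2.14, while Nr3c1, the receptor, fell by 0.62 (adjusted p = 3.81e-10). Several of these genes also answer to cytokines or fatty acids. Of the clock genes, Per2 rose by 2.01 and the output genes Dbp and Hlf were lower at -0.94 and -1.34, and the hour at which hearts were taken is not given in the labels. Of 22 immediate early and AP-1 genes 13 rose and 3 fell, with a median of 1.29. Fosl1 rose by 5.07, Myc by 3.48 and Junb by 2.49, while Fos stood at 0.70 (adjusted p = 0.167) and Jun fell by 0.49.

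Most collagen genes fell, while Col4a1 and Col4a2, the main basement membrane chains, rose. Of 20 collagen genes 16 fell and 3 rose, with a median of -1.51, and yet the list summed to 3717 to 4369 CPM in LPS day 1 hearts, against 2098 to 2893 CPM in LPS baseline hearts. Col15a1 had 45.3, 42.9, 42.8 and 30.1 CPM in LPS day 1 hearts, against 166, 150.0, 192 and 194 CPM in LPS baseline hearts (log2 change of -2.12, SE 0.21, adjusted p = 6.6e-09). Col4a1, a chain of basement membrane collagen, had 1940.1, 1962, 2014 and 1704 CPM in LPS day 1 hearts, against 624, 538, 734 and 741 CPM in LPS baseline hearts (log2 change of 1.53, SE 0.17, adjusted p = 3.93e-08). The groups were separate for both, in opposite directions. Its neighbour Col4a2 rose by 1.40, and Col6a3 fell by 1.88. Fibroblast identity genes fell in 10 of 16 and rose in 3, their list summing to 1551 to 1652 CPM in LPS day 1 hearts, against 1997 to 2155 CPM in LPS baseline hearts. Pdgfra, the defining receptor, stood at 0.22 (adjusted p = 0.066). Of 20 genes of activated fibroblasts 7 rose and 6 fell, with a median of -0.11. Fap, fibroblast activation protein, was lower at -1.52 (adjusted p = 8.3e-06). Lox, which cross-links collagen, rose by 4.15, and Timp1, an inhibitor of matrix proteases, had 39.1, 37.3, 29.8 and 22.3 CPM in LPS day 1 hearts, against 0.941, 0.688, 0.948 and 1.03 CPM in LPS baseline hearts (log2 change of 5.15, SE 0.38, adjusted p = 5.54e-11).

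Of 20 genes of matrix proteases and their inhibitors 13 rose and 6 fell, with the stromelysin Mmp3 higher by 4.39 and the aggrecanases Adamts1 and Adamts4 higher by 2.45 and 3.79, and Mmp15, a membrane-bound protease, lower at -3.11 (SE 0.15, adjusted p = 4.96e-14). Among 16 mural cell genes 10 were lower and 3 higher, with changes of -1.41 for Myh11, smooth muscle myosin, -1.58 for Notch3 and 2.03 for Steap4. The mural list summed to 3824 to 5105 CPM in LPS day 1 hearts, against 3847 to 3950.0 CPM in LPS baseline hearts, and the groups overlapped. Schwann cell and nerve genes fell in 11 of 12 (8 to 11 across the processing alternatives), with Gfra3, a receptor of artemin, at -3.12. Igf1 had 1.6, 1.89, 1.2 and 1.74 CPM in LPS day 1 hearts, against 8.62, 8.56, 11.9 and 9.81 CPM in LPS baseline hearts (log2 change of -2.59, SE 0.26, adjusted p = 6.66e-09), and Fgf16, a growth factor of cardiomyocytes, fell by 3.03. The groups did not overlap for Igf1. Fgf2 rose by 2.16 and Igfbp3 by 1.39.

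**Figure D4:**
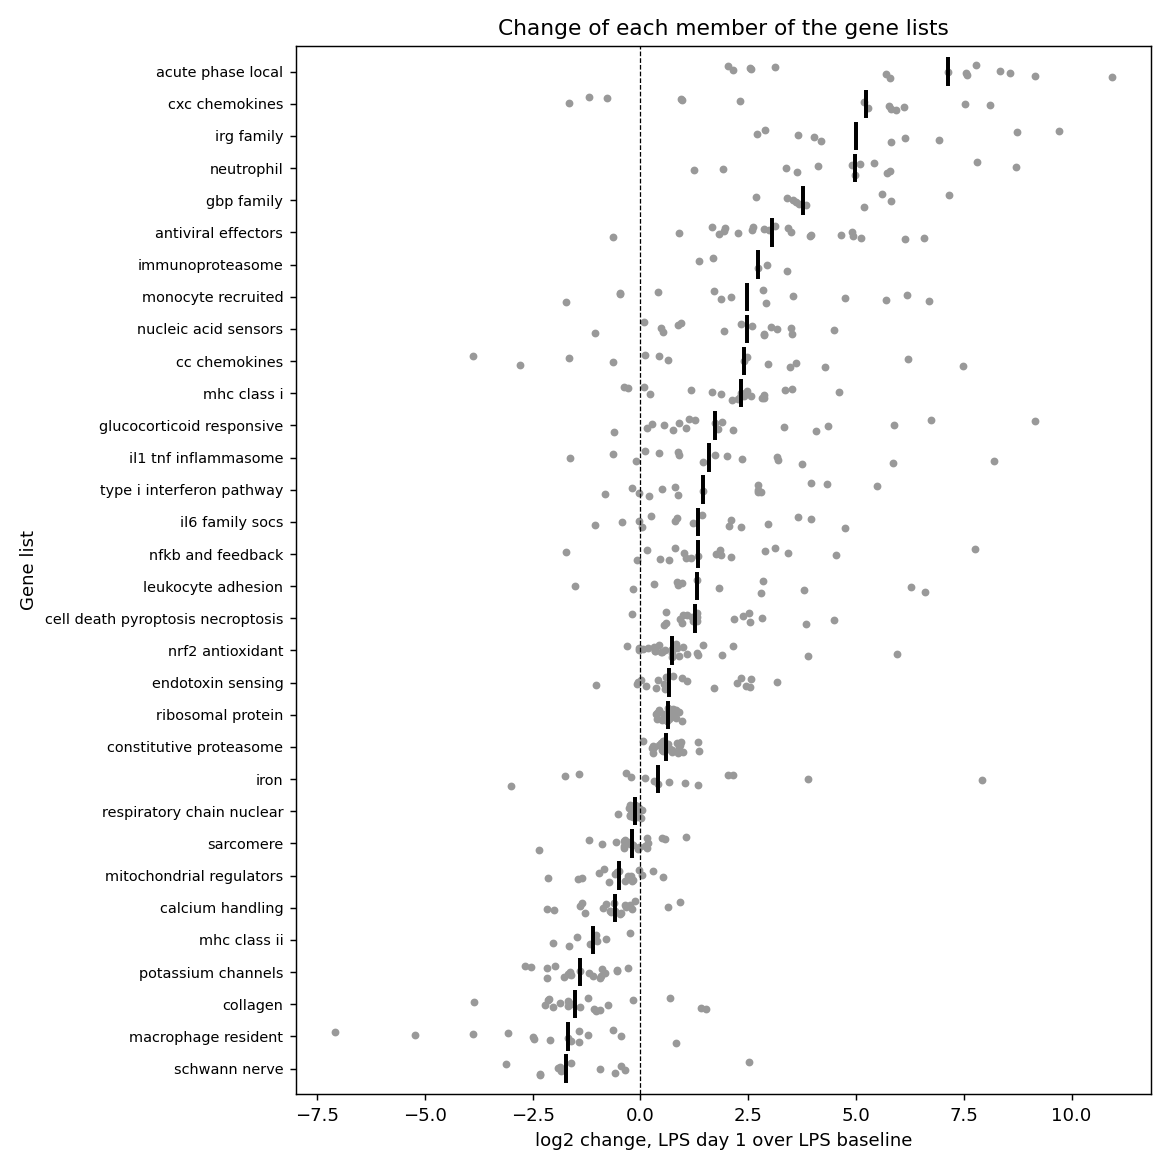
Log2 change of LPS day 1 over LPS baseline for each tested member of 32 gene lists, ordered by median; grey points are members, black bars are list medians and the dashed line is 0, the median of all genes tested. Acute-phase, CXC chemokine and immunity-related GTPase lists have the highest medians, at 7.13, 5.23 and 5.00, and Schwann cell, resident macrophage and collagen lists the lowest, at -1.73, -1.68 and -1.51. With log2(TPM + 0.1) the medians of the first 3 lists were 5.68, 2.51 and 4.925. On that scale those of the Schwann cell, resident macrophage and collagen lists were -1.379, -1.846 and -1.531, so their order changed.

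The change after LPS was then set against the change after isoproterenol at the same time, each relative to its own untreated hearts. Of 15732 genes, 5923 (37.6%) differed between the agents by edgeR's test of the difference, 2862 (18.2%) with the LPS change above the ISO change and 3061 (19.5%) below it. Interferon and antigen presentation genes were among the first set: the LPS change was above the ISO change for 21 of 22 antiviral genes, 10 of 10 immunity-related GTPases, 9 of 10 guanylate-binding proteins, 17 of 20 class I genes and 5 of 5 immunoproteasome genes. Igtp had 2.76, 4.97 and 3.37 CPM in ISO day 1 hearts, against 17.1, 9.75, 10.4 and 10.4 CPM in ISO baseline hearts, so that its change was 6.93 after LPS and -1.67 after isoproterenol (difference in change of 8.61, SE 0.36, adjusted p = 2.21e-14). Cxcl9 had 0.647, 0.511 and 0.541 CPM in ISO day 1 hearts, against 2.37, 3.98, 3.85 and 3.99 CPM in ISO baseline hearts (difference in change of 8.40, SE 0.41, adjusted p = 2.42e-13). Both genes thus lay below their own baseline after isoproterenol and above it after LPS. Ifit3b differed in the same direction (difference in change of 8.34, SE 0.32, adjusted p = 6.83e-15). Gm4841 had 0 reads in all 3 ISO day 1 hearts, so its fold change there has no value.

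Genes with the LPS change below the ISO change included macrophage, matrix and protein-folding genes. Ccl6, a macrophage chemokine, had 37.7, 33.9 and 28.8 CPM in ISO day 1 hearts, against 5.04, 4.95, 4.96 and 4.74 CPM in ISO baseline hearts, a change of 2.76 after isoproterenol and -2.79 after LPS (difference in change of -5.56, SE 0.32, adjusted p = 5.81e-12). Klhl40, a kelch protein that stabilises thin filament proteins in skeletal muscle, had 209, 252 and 276 CPM in ISO day 1 hearts, against 25.3, 25.6, 21.5 and 22.4 CPM in ISO baseline hearts (difference in change of -4.08, SE 0.19, adjusted p = 9.39e-14). The LPS change was below the ISO change for 12 of 21 unfolded protein genes, 12 of 17 heat shock genes 15 of 24 endothelial genes, 9 of 15 resident macrophage and 8 of 20 collagen genes. Actc1 had 6367, 6464 and 8622 CPM in ISO day 1 hearts, against 8995, 9315, 7553 and 8931 CPM in ISO baseline hearts, a change of -0.28 after isoproterenol and -2.35 after LPS (difference in change of -2.07, SE 0.18, adjusted p = 7.08e-09). The fall of cardiac actin mRNA was thus larger after LPS than after isoproterenol. For 19 of 20 branched-chain enzymes the LPS change was above the ISO change, with medians of -0.26 and -0.94.

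Several abundant changes were close in size after both agents. Pdk4 changed by 4.36 after LPS and 4.42 after isoproterenol (difference in change of -0.06, SE 0.62, adjusted p = 0.954). Ankrd1 changed by 3.32 after LPS and 3.46 after isoproterenol (difference in change of -0.14, SE 0.37, adjusted p = 0.799), and Pln by -1.29 and -1.25 (difference in change of -0.04, SE 0.17, adjusted p = 0.88). For these 3 genes the test of the difference was not passed, which does not show that the agents act alike. Potassium channel genes had a median change of -1.39 after LPS and -1.58 after isoproterenol, and the LPS change was above the ISO change for 4 and below it for 3 of 19.

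**Figure D5:**
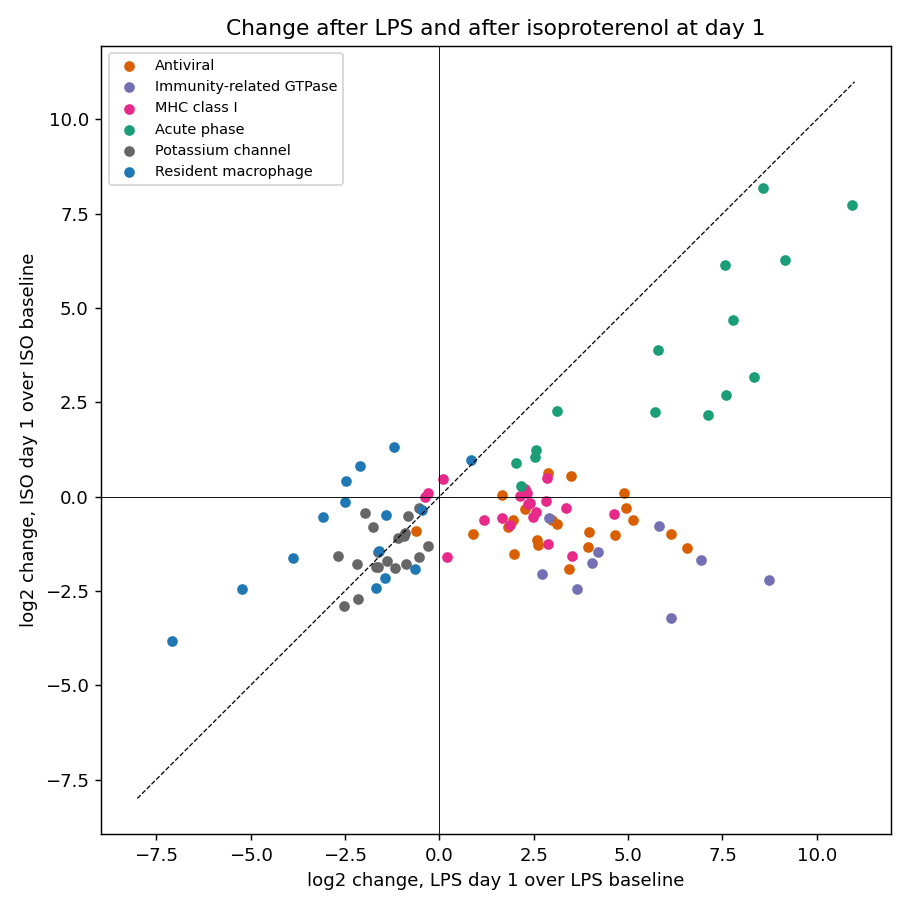
Log2 change at day 1 after LPS (x axis, LPS day 1 over LPS baseline) against that after isoproterenol (y axis, ISO day 1 over ISO baseline) for the members of 6 gene lists; points are genes and the dashed diagonal marks equal change. Gm4841, with no reads in ISO day 1 hearts, is not drawn. Immunity-related GTPase and, apart from Ifit1bl1, antiviral genes lie to the right of 0 after LPS and mostly below 0 after isoproterenol, Igtp at 6.93 and -1.67, while potassium channel genes lie below 0 on both axes.

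The 4 LPS day 1 hearts differed among themselves. Among the 10 genes with the largest spread between them, at a mean of at least 20 CPM, were Synpo2l, Ccn2, Gm13889, Hbegf, Ptx3, Cxcl10, Htra3, Pde4b and Scd4. Synpo2l, an actin-binding protein of the Z-disc, had 993, 906, 116 and 261 CPM in LPS day 1 hearts, against 163, 168, 177 and 162 CPM in LPS baseline hearts (log2 change of 1.76, SE 0.38, adjusted p = 0.00026), so that replicates 1 and 2 lay far above the baseline range and replicate 3 below it. Without replicates 1 and 2 the Synpo2l call was lost, at 0.17 (adjusted p = 0.447). Ccn2, connective tissue growth factor, had 359, 564, 77.9 and 99.4 CPM in LPS day 1 hearts, against 57.6, 45.6, 59.7 and 62.9 CPM in LPS baseline hearts (log2 change of 2.28, SE 0.42, adjusted p = 5.35e-05). Htra3, a serine protease, had 12.5, 12.3, 47.3 and 42.6 CPM in LPS day 1 hearts, against 99.1, 109, 112 and 109 CPM in LPS baseline hearts (log2 change of -1.90, SE 0.30, adjusted p = 6.44e-06), and here replicates 1 and 2 were the lower pair. Synpo2l, Ccn2 and Htra3 each divided the LPS day 1 hearts into the same pairs. What distinguishes the pairs was not tested.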

How the data were processed

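Gene-level tables of 23 libraries were used, 8 of them in the main comparison. Per the file headers, the deposited files give an estimated count of reads per gene and a TPM value that the authors divided by effective length. Per the submitters' processing notes, the tools were bcl2fastq, DRAGEN, edgeR and limma and the genome mm10. Neither versions, annotation release nor strand setting are stated, so reads of overlapping and antisense genes cannot be told apart. Of 55487 gene identifiers 55227 matched GENCODE M21. The estimated counts, 9.499% of them not whole within a tolerance of 0.001, were rounded and tested with edgeR 4.0.16 (R 4.3.3): TMM scaling, genes passing a minimum count of 10, 1 mean for each of 6 groups over all 23 libraries, the quasi-likelihood test and Benjamini-Hochberg adjustment over all 15732 genes. Alternatives used DESeq2 1.42.0 and limma 3.58.1, on TPM as log2(TPM + 0.1) and log2(TPM + 1). Simulated data had 67, 67 and 66 of 15732 genes changed 1.5-fold, 2-fold and 4-fold, and the same spread in each group. The test recovered 65.7%, 80.6% and 90.9% of them, with 8 false calls. The simulation held neither the share of genes called in the hearts (66.2%) nor the pairs of LPS day 1 hearts. Its rates therefore need not hold for these hearts. The total count per library, 20910394 to 30368985 reads over the series, and 4 hearts per group limit the precision. The labels number the hearts but do not say that equal numbers share a litter or day. The p-values weigh each change against a spread estimated over all 6 groups and 23 libraries. LPS day 1 hearts varied more than LPS baseline hearts, and with the compared groups alone 9442 genes were called.

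Named genes were the largest changes with no overlap, the largest gains and losses of TPM, the strongest and the discordant members of each gene list, the largest differences from ISO, the most variable genes and the longest runs; some genes that this rule names are not reported here. The gene lists and the genes of each were chosen with earlier results of these data known. Genes named outside that rule, after their values were seen, were Acadm, Adamts1, Adamts4, Adrb1, B2m, Cd14, Cdh5, Cebpd, Col6a3, Cxcl5, Elane, Fos, Gja1, Gsdmd, Ifitm3, Ifnar2, Ifnb1, Ifng, Ifngr1, Igfbp3, Il1b, Il1f9, Kcnj3, Ly6g, Mpo, Myh7, Nppa, Oasl1, Pfkm, Ppargc1a, Rsad2, Ryr2, Saa2, Sele, Slc40a1, Stfa2l1, Tap2, Tgtp1, Tlr4, Tnf, Txnrd1, Vegfc, Wfdc21, Zbtb16 and Zfp36.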

Additional observations from a re-analysis of the deposited data

Results flagged for a closer look

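In 30 of the 518 groups of 4 hearts examined for the named genes and library measures, 9 of LPS day 1 and 21 of LPS baseline hearts, a single heart lay apart from the other 3. The measure is the gap to the nearest heart divided by the range of the group, compared with Dixon's 95% critical value. Chance gives such a flag in about 1 in 20 groups. Replicate 1 of the LPS day 1 hearts stood apart for Parp14 (324 CPM, gap share 0.871), Serpina3g (30.5 CPM, gap share 0.858) and Vegfc (2.27 CPM, gap share 0.898). Replicate 2 of the LPS day 1 hearts stood apart for Acadm (722 CPM, gap share 0.859), Nppb (137 CPM, gap share 0.854) and Pdlim5 (772 CPM, gap share 0.848). Replicate 3 of the LPS day 1 hearts stood apart for Il18bp (48.6 CPM, gap share 0.896) and Nlrc5 (34.6 CPM, gap share 0.871). Replicate 4 of the LPS day 1 hearts stood apart for Col15a1 (30.1 CPM, gap share 0.833). Replicate 1 of the LPS baseline hearts stood apart for Cdkn1a (48.3 CPM, gap share 0.836), Dbp (26.6 CPM, gap share 0.840), Hp (0.0724 CPM, gap share 0.938), Mgl2 (5.83 CPM, gap share 0.934) and Nfkbia (41.7 CPM, gap share 0.874). It did so too for Zfp36 (34.8 CPM, gap share 0.883). Replicate 2 of the LPS baseline hearts stood apart for Adcy5 (159 CPM, gap share 0.851), Adcy6 (217 CPM, gap share 0.894), Cdh5 (205 CPM, gap share 0.902), Csf3 (0.153 CPM, gap share 1.000) and Fbxo32 (116 CPM, gap share 0.831). It did so too for Gja1 (311 CPM, gap share 0.909), Rcan1 (65.6 CPM, gap share 0.832) and Tnip3 (1.68 CPM, gap share 0.854). Replicate 3 of the LPS baseline hearts stood apart for Itgam (4.7 CPM, gap share 0.844), Scd4 (15.9 CPM, gap share 0.861) and Steap3 (38.3 CPM, gap share 0.901). Replicate 4 of the LPS baseline hearts stood apart for Clec4e (0.0396 CPM, gap share 1.000), Ngp (0.0396 CPM, gap share 1.000), Saa3 (1.19 CPM, gap share 0.871) and Serpina3m (0.0396 CPM, gap share 1.000). Among these values, Clec4e, Csf3, Ngp and Serpina3m rest on 1 to 4 reads in a single LPS baseline heart with none in the other 3.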

How the results depend on the processing

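The number of genes called between LPS day 1 and LPS baseline hearts stayed within 1.5 times of 10410 under all 25 alternatives, at 9022 to 10984. Leaving out 1 heart gave 9835 to 10236 called genes (4953 to 5119 higher, 4882 to 5117 lower), 1663 to 1821 at least 2-fold higher, 1795 to 2031 at least 2-fold lower, and 5181 to 6024 that differed from ISO (2519 to 2889 above, 2662 to 3135 below). With log2(TPM + 1) and limma, 926 genes passed 2-fold upward and 728 downward; this scale understates changes of low genes by construction, and on it the medians of the acute-phase and CXC chemokine lists were 3.85 and 1.32. For the difference from ISO, limma called 1883 genes above with log2(TPM + 0.1) and 1892 with log2(TPM + 1), and the cause was not tested. With 4-fold in place of 2-fold as the set, the interferon-stimulated element stood in 13.6%, the gamma-activated site in 13.6% and the kappaB motif in 6.25% of promoters of higher genes, and the gamma-activated site in 4.33% of promoters of lower genes. The difference in mean library total (day 1 minus baseline, -601100 reads) ranged from -1825000 to 381700 when 1 heart was left out; the ranges were 54.92 to 426.6 for genes detected and, in percentage points, -2.194 to -1.074 for mitochondrial, -0.04611 to -0.03257 for haemoglobin and -3.254 to -2.258 for the top 10 genes. Equal replicate numbers did not pair the hearts (correlations of deviations near 0), and with the replicate block 10415 genes were called between the groups and 5920 differed from ISO. Of 254 tested genes named, 246 kept their direction and their call under every alternative that tested them, and none changed direction in any of these. The calls of Myl2 (-0.15, adjusted p = 0.149) and Tnni3 (-0.19, adjusted p = 0.136) were lost without LPS day 1 replicates 3 and 4, and that of Hbegf (0.27, adjusted p = 0.249) without replicates 1 and 2, all by edgeR. Pdgfra, not called in the reported fit, was called higher without LPS day 1 replicates 1 and 2 (0.34, adjusted p = 0.0204), without replicate 1 and in 2 other alternatives, as were Myh7 (0.25, adjusted p = 0.0431) with the compared groups alone and Nppb (0.92, adjusted p = 0.0176) with ISO baseline hearts in place of LPS baseline hearts. The uncalled difference from ISO turned its sign for Ankrd1 and Pdk4 without LPS day 1 replicates 3 and 4 (0.27 and 0.17) and for Pln without replicates 1 and 2 (0.17). Without replicates 1 and 2 it was -0.72 for Ankrd1 (adjusted p = 0.113 by edgeR) and -0.33 for Pdk4, and without replicates 3 and 4 -0.28 for Pln. Leaving out 1 heart gave -0.3669 to 0.0214 for Ankrd1, -0.6428 to 0.1471 for Pdk4 and -0.1966 to 0.1050 for Pln. The median of the vascular growth list was -0.17 with ISO baseline hearts in place of LPS baseline hearts. Across alternatives the count of respiratory chain genes that fell ranged from 1 to 25, and that of neutrophil genes called higher from 7 to 13; a minimum count of 50 tests fewer genes by construction. Depth limits the genes with few reads, such as Il6 and Ifng.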
